A study of Oryza sativa Japonica Group with 9 samples.

Results

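Developing rice grains (caryopses) of plants edited in either of a pair of genes were treated as a single side and set against wild-type grains. The GSK5 gene encodes a GSK3/SHAGGY-like protein kinase, and the ARF4 gene encodes an auxin response factor. The 6 edited libraries (3 of genotype GSK5-/- and 3 of genotype ARF4-/-) formed the edited side, and 3 wild-type (WT) libraries formed the other, so all 9 libraries of the series were used. All plants were of the cultivar Nipponbare. The sample labels place sampling at day 9 after flowering, the series text at days 7 to 8. The labels do not describe the edited alleles, the number of edited lines behind a genotype, or whether grains of several plants were pooled. Transcript levels were given as FPKM, fragments scaled to gene length and to the library's mapped total. Of 55986 gene models, 23385 had at least 1 FPKM in at least 3 of the 9 libraries and were tested. Of these, 17804 (76.1%) differed from WT in the same direction in both edited groups. The 2 differences share the WT libraries, so this share was fixed in part by the design. A gene was called when the limma contrast of the edited mean against WT had an adjusted p under 0.05 and the direction agreed in both edited groups.

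GSK3-like kinases act in several plant pathways and are best known as brakes on brassinosteroid signalling, where they phosphorylate transcription factors such as BZR1 and keep them inactive. Auxin response factors bind the promoters of auxin-responsive genes. Aux/IAA proteins hold those factors that activate genes in check until auxin leads to the removal of Aux/IAA proteins. In the rice caryopsis both hormones bear on how far cells divide and enlarge before the endosperm fills with starch and storage protein.

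The WT libraries did not form a tight group. On the first principal component (36.2% of the variance) WT replicates 1 and 2 stood at -104.3 and -52.82, WT replicate 3 at -0.3299, and the edited libraries between 2.091 and 53.85. WT replicate 3 was also the WT library nearest to the edited mean for 55.2% of the genes tested. The median SD of a gene within a group was 0.272 log2 units in WT, 0.241 in ARF4 and 0.114 in GSK5. Depth differed between the sides as well. Read from the steps of low FPKM values, it was 95.8% to 100% of the deepest library in WT and 70.7% to 93.7% in the edited libraries, so the 3 WT libraries were the deepest. The number of genes at 1 FPKM or more was 21571 ± 733 (SD, n = 3) in WT and 22568 ± 588 (SD, n = 6) in the edited libraries, which overlapped (exact two-sided permutation test, p = 0.0714; the smallest p this design allows is 0.0238). The part of depth in the results was not tested.

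**Figure D1:**
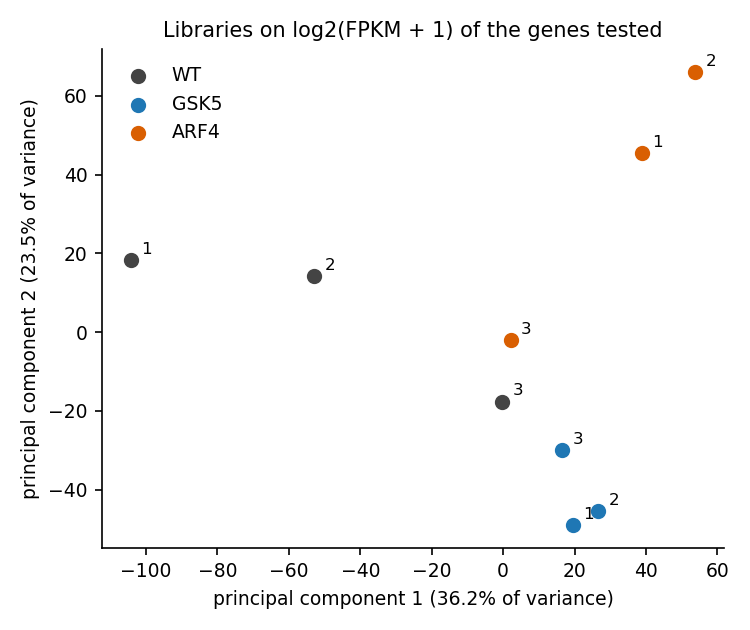
Positions of the 9 libraries on the first and second principal components of log2(FPKM + 1) over the genes tested, with replicate numbers beside the points. WT replicates 1 and 2 lie to the left, and WT replicate 3, at -0.3299 on the first component, lies nearest to ARF4 replicate 3 at 2.091 on that axis.

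Storage protein genes were near zero in most libraries, while levels of starch genes were mixed. Of 9 loci entered as glutelins, the main storage proteins of rice, 1 reached 1 FPKM in any WT or GSK5 library and 2 did so in any library. GBSSI, the granule-bound starch synthase known as Waxy, stood at 0.33, 0.22 and 0.66 FPKM in WT, at 4.16, 1.93 and 1.36 in GSK5 and at 0.66, 1.2 and 0.42 in ARF4. The locus entered as BT1, the ADP-glucose transporter of the amyloplast, did not exceed 0.22 FPKM in any library, and NF-YB1, an aleurone factor of sucrose loading, did not exceed 0.48. Other starch genes were well expressed: 23 of the 30 starch loci reached 10 FPKM in some library. AGPS1, a small subunit of ADP-glucose pyrophosphorylase, stood at 84.86 to 439.11 FPKM, the branching enzyme genes BEI and BEIIb at 20.73 to 89.25 and 30.67 to 51.45, and the starch synthase gene SSI at 34.31 to 82.84. Genes of ovule and maternal tissue were well expressed: MADS7 and MADS13, both MADS-box factors, had at least 234.01 and 98.93 FPKM in every library. The summed level of the 17 photosynthesis genes, markers of the green pericarp, was 3969 to 6025 FPKM in WT, 3119 to 3918 in GSK5 and 3763 to 6914 in ARF4. Those of the 6 embryo loci were 38.22 to 57.5, 146.5 to 189.8 and 8.23 to 49.92 FPKM. Most of the GSK5 sum was a single gene, LEA3, at 135.64 to 174.13 FPKM. Of the 4 embryo genes tested LEA3 alone had a pooled difference above 0, so the sum does not speak for the list. The part of tissue composition in the results was not tested, and in bulk RNA fewer cells of a type and less RNA per cell cannot be told apart.

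Across all genes tested, 924 were called between edited and WT grains, 3.95% of those tested. Of these, 415 were higher in edited grains (1.77%) and 509 were lower (2.18%). In simulated data with unequal group spreads like those measured, this fit made more false calls than its threshold allows. The count may therefore hold more false calls than the adjusted p states. The simulation changed 200 genes and gave all genes the same ratios of spread between groups, so the size of that excess need not carry over. A further 8 genes passed the threshold with opposite directions in the edited groups and were not counted. The median size of a called difference was 1.12 log2 units, and the smallest was 0.36. Higher calls reached further than lower calls: 105 genes were higher by at least 2 log2 units and 53 were lower by as much. The filter treats the directions unequally. A gene near zero in WT can pass through any 3 of the 6 edited libraries. A gene near zero in edited grains passes only with all 3 WT libraries at 1 FPKM or more. The counts of large differences are therefore not on equal terms. The median difference over all genes tested was 0.09, with 60.3% of genes above 0. After quantile normalization 284 genes were higher and 565 lower, so the share of higher calls went from 44.9% to 33.5%.

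The number of calls depended on single libraries. Without WT replicate 1, 2 or 3 it was 229, 137 and 4354. Without GSK5 replicate 1, 2 or 3 it was 293, 192 and 238. Without ARF4 replicate 1 or 2 it was 294 and 1871. The fit that lets groups differ in spread called 241 genes, all among the 924, and the fit with a common mean for the 6 edited libraries called 458, all among the 924 as well. Leaving out WT replicate 3 kept 897 of the 924 calls. Among the 924, WT replicate 3 was the WT library nearest to the edited mean for 599 (64.8%), replicate 1 for 170 and replicate 2 for 155.

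**Figure D2:**
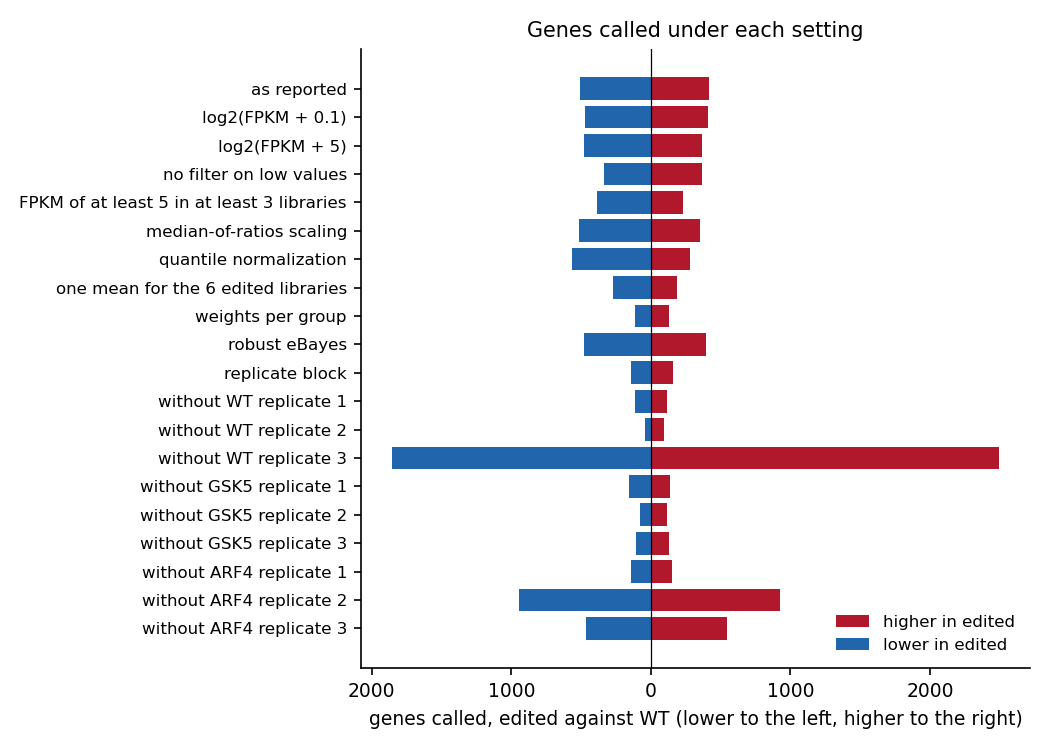
Genes called higher (to the right) and lower (to the left) in edited grains, as reported and under each of 19 alternative settings. The bars for the fit without WT replicate 3 reach 2498 higher and 1856 lower, against 415 and 509 as reported.

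A description that needs no model of the spread gave a related picture. For 1478 genes (6.32% of those tested) every edited library lay above every WT library, and for 1422 (6.08%) every edited library lay below, together 2900 (12.4%). Among the 924 called genes the sides did not overlap for 825, of which 340 were higher and 485 lower. The same contrast chose these genes, so the count is given as a description only. The called genes were not brighter than others: the median of the mean FPKM over all 9 libraries was 9.31 for called genes and 10.7 for all genes tested.

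**Figure D3:**
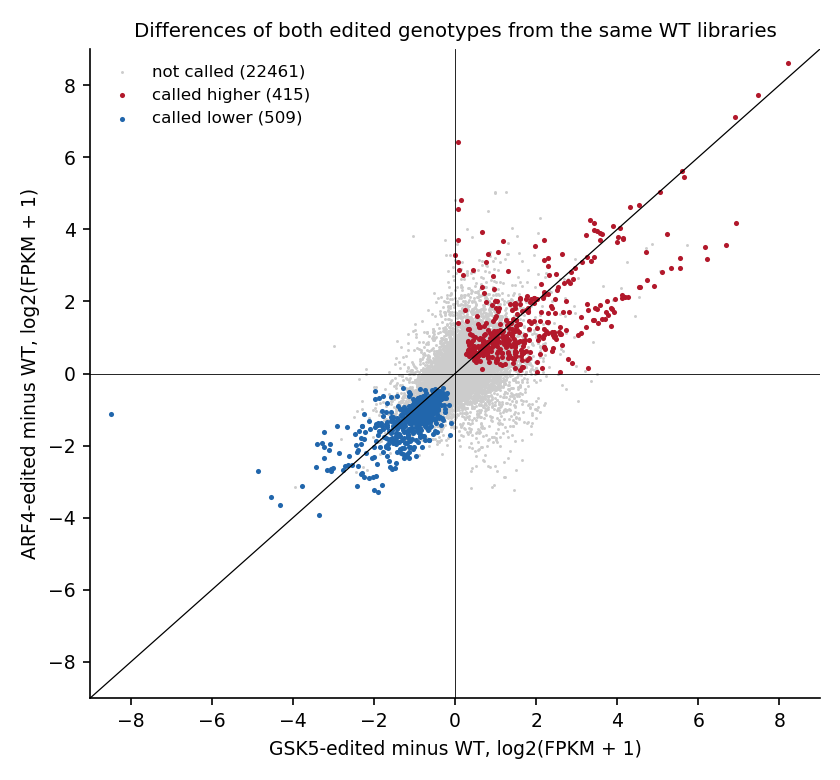
Each point is a gene, placed by its log2(FPKM + 1) difference from WT in GSK5-edited grains (horizontal axis) and in ARF4-edited grains (vertical axis); the diagonal marks equal differences. Called genes (415 higher, 509 lower) lie to the upper right and lower left by definition, and both axes use the same WT libraries.

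The edited genes were not called in the pooled comparison. The locus entered as GSK5 (LOC_Os03g62500) stood at 32.07, 39.33 and 47.96 FPKM in WT, at 31.1, 33.99 and 31.55 in GSK5-/- grains and at 34.3, 48.27 and 39.67 in ARF4-/- grains. The sides overlapped, with a pooled log2 difference of -0.12 (SE 0.15, adjusted p = 0.617 by limma). ARF4 (LOC_Os01g70270) stood at 91.82, 92.48 and 67.58 FPKM in WT, at 75.43, 74.71 and 84.72 in GSK5-/- grains and at 54.21, 49.52 and 47.61 in ARF4-/- grains. Its levels in GSK5-/- grains lay within the WT range, and those in ARF4-/- grains lay below every other library. The pooled log2 difference was -0.4 (SE 0.12, adjusted p = 0.108 by limma), and without WT replicate 3 it passed the threshold (adjusted p = 0.0161; 0.0161 to 0.31 over the alternatives). An edit need not alter the transcript level of its gene.

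A smaller set of calls held under every setting tried. In all 19 alternatives 77 of the 924 genes were called, 51 of them higher and 26 lower in edited grains. The higher genes had a median log2 difference of 2.94, and the lower genes of -1.85. In 30 of the 51 higher genes every WT library was under 1 FPKM. These 30 passed the filter only through edited libraries, where they were high, so their calls were favoured by the filter. The other 21 higher genes had at least 1 FPKM in some WT library, and their differences ranged from 0.77 to 4.55. None of the 26 lower genes was under 1 FPKM in every edited library, although for 16 of them the WT mean was over 4 times the edited mean. Such a gene would pass the filter only with all 3 WT libraries at 1 FPKM or more. The counts in the 2 directions are therefore not on equal terms. The median levels of the 26 were 25.7 FPKM in WT and 6.31 in edited grains, against 0.57 and 14.3 for the 51. One list member was among the 77, the cytokinin response regulator entered as RR3.

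Names are not paired with the identifiers in the deposited values, so the largest differences are given by identifier. LOC_Os03g02470 stood at 0.14, 0.12 and 0.19 FPKM in WT, at 357.22, 320.1 and 338.16 in GSK5 and at 556.86, 311.54 and 520.89 in ARF4. It was near zero in every WT library and abundant in every edited library, with a log2 difference of 8.41 (SE 0.18, adjusted p = 2.92e-07 by limma). LOC_Os07g26100 stood at 0.02, 0.03 and 0.03 FPKM in WT, and between 144.99 and 292.59 in the 6 edited libraries, a log2 difference of 7.61 (SE 0.19). Both calls held in all 19 alternatives. Both genes passed the filter only through the edited libraries and were picked for the size of their difference, so this was largely fixed beforehand.

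The 2 lower identifiers differed in how alike the edited genotypes were. LOC_Os10g22630 stood at 913.95, 670.76 and 384.41 FPKM in WT, at 0.85, 0.48 and 0.88 in GSK5 and at 232.17, 358.73 and 271.04 in ARF4. Its pooled log2 difference of -4.81 (SE 0.27, adjusted p = 6.3e-05 by limma) was made up of a difference of -8.49 in GSK5 and of -1.13 in ARF4, and GSK5 differed from ARF4 (adjusted p = 7.71e-05). With a common mean for the 6 edited libraries the call was lost (adjusted p = 0.223; 3.66e-05 to 0.223 over the alternatives). LOC_Os04g27670 stood at 103.79, 116.26 and 36.25 FPKM in WT, at 2.23, 0.82 and 5.16 in GSK5 and at 9.33, 8.83 and 2.54 in ARF4. Here all edited libraries lay far under WT (log2 difference -3.99, SE 0.54, adjusted p = 0.0104), with no called difference between GSK5 and ARF4. The call was lost without WT replicate 1 or 2 and where groups could differ in spread (adjusted p up to 0.0683).

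A group of genes was near absent in WT and expressed in both edited genotypes. With every WT library under 1 FPKM and a mean of at least 5 FPKM in each edited group, 48 genes were found, a class defined after the values were seen. A class the other way, at 5 FPKM or more in every WT library and under 1 on average in both edited groups, held 2 genes, both called. It asked 5 FPKM of every WT library and not of a mean, so its count and the 48 are not on equal terms. The 48 genes fell into 2 patterns by ARF4 replicate 2.

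In the first pattern, 23 genes were at 1 FPKM or more in all edited libraries. Their median level was 0.05, 0.03 and 0.08 FPKM over the WT libraries. It was 15.8, 15.3 and 16 FPKM over the GSK5 libraries and 16, 18.9 and 15.4 FPKM over those of ARF4. As a share of the GSK5 mean of the same gene, the medians were 97%, 114% and 105% in ARF4 replicates 1, 2 and 3, while single genes ran from 16.6% to 345%. Of the 23 genes 22 were called, in all 19 alternatives, which the choice of the class from these values and the filter largely fixed. They lay on 11 of the 12 chromosomes, by the chromosome number in the identifier.

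In the second pattern, 25 genes were under 1 FPKM in ARF4 replicate 2 as in WT. Their median was 0, 0.02 and 0.02 FPKM in WT, 28.6, 21.8 and 21.1 in GSK5, and 15, 0.05 and 18.3 in ARF4 replicates 1, 2 and 3. ARF4 replicates 1 and 3 stood at a median of 49.9% and 56.2% of the GSK5 mean of the same gene, and ARF4 replicate 2 at 0.108%. These genes lay on 9 chromosomes. These genes too were chosen from these values and passed the filter only through edited libraries, so their calls give no support by themselves. As reported 17 of the 25 were called. Without ARF4 replicate 2 all 25 were called, which the choice of the genes by that library largely fixed. Where groups could differ in spread 1 was called, and with a common mean for the edited libraries 0 were. None was called in all 19 alternatives.

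The same library stood apart when ARF4 values were not used to choose the genes. In 81 genes every WT library was under 1 FPKM and every GSK5 library at 5 or more. Of these, 55 were under 1 FPKM in ARF4 replicate 2, against 4 in ARF4 replicate 1 and 5 in ARF4 replicate 3, and 50 were under 1 in ARF4 replicate 2 alone. Most genes of the second pattern meet this rule too, so the 55 are not a separate set of genes. The opposite class, at 5 FPKM or more in every WT library and under 1 in every GSK5 library, held 3 genes.

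**Figure D4:**
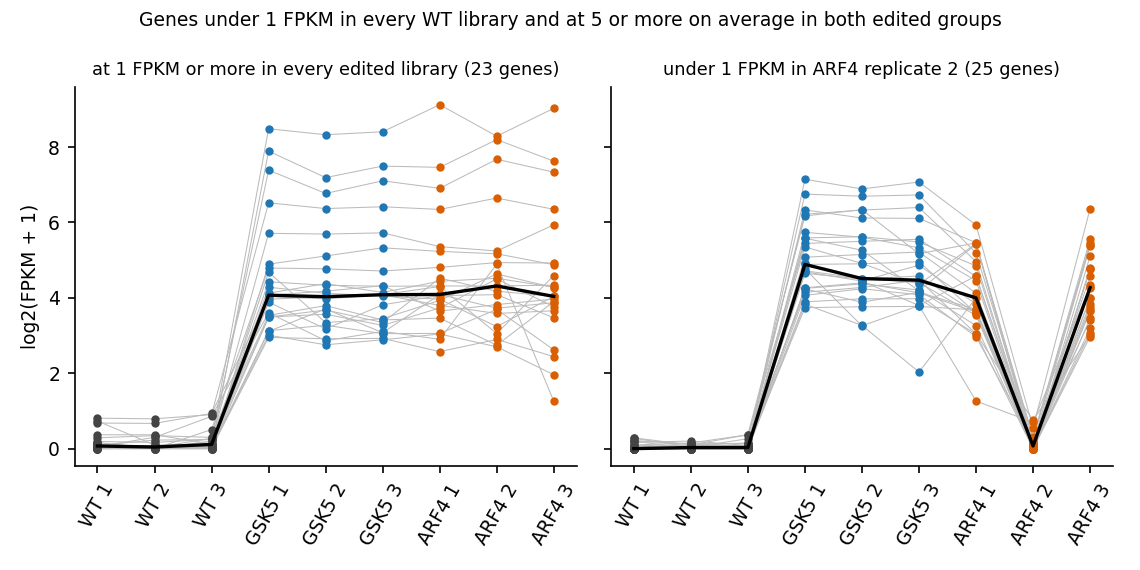
Levels, as log2(FPKM + 1), of the 48 genes under 1 FPKM in every WT library and at 5 or more on average in both edited groups; each grey line is a gene and the black line the median. On the left are 23 genes present in every edited library, and on the right 25 genes that drop to the WT level in ARF4 replicate 2.

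Known genes of the caryopsis were read from 23 lists of hormone, grain size, starch, storage, stress and tissue genes. Of 231 list members tested 9 were called (3.9%), close to the 3.95% of all genes, so the lists as a whole did not stand out. The sides did not overlap for 17 members (7.36%), 10 above and 7 below WT, against 12.4% of all genes. Of the 9 called members 8 rose and 1 fell. Where groups could differ in spread 3 of the 9 remained called (RR3, GW2 and GluA1).

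Of the 9 only the gene entered as RR3 (LOC_Os02g58350), a type-A response regulator, was called in all 19 alternatives. Such regulators are switched on by cytokinin and dampen its signalling. RR3 stood at 9.54, 10.38 and 11.72 FPKM in WT, at 18.18, 19.63 and 19.38 in GSK5 and at 17.13, 19.37 and 18.47 in ARF4. Every edited library lay well above every WT library. The mean of RR3 was 10.5 ± 1.1 FPKM (SD, n = 3) in WT and 18.7 ± 0.955 FPKM (SD, n = 6) in edited grains. RR3 rose, with a log2 difference of 0.77 (SE 0.09, adjusted p = 0.00606 by limma; up to 0.0479 over the alternatives). Of 7 cytokinin genes tested 1 was higher and 6 were not called, with a median log2 difference of -0.4. RR9, a close relative of RR3, lay below WT in every edited library, at 20.87, 18.93 and 18.7 FPKM in WT against 12.64 to 17.09 in edited grains (log2 difference -0.48, adjusted p = 0.0542); it was called lower under both other scalings.

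GW2 (LOC_Os02g14720) encodes a ubiquitin ligase of the RING type, known to limit how wide the grain grows. It stood at 10.88, 10.39 and 11.86 FPKM in WT, at 17.44, 17.71 and 16.59 in GSK5 and at 15.57, 17.27 and 16.25 in ARF4. The edited libraries lay within a narrow band above WT. Means were 11 ± 0.748 FPKM (SD, n = 3) in WT and 16.8 ± 0.815 FPKM (SD, n = 6) in edited grains. GW2 rose, with a log2 difference of 0.56 (SE 0.08, adjusted p = 0.0151 by limma). Over the alternatives the adjusted p reached 0.0903, and the call was lost when WT replicate 1 or 2 was left out, as it was without each GSK5 library. Of 15 grain size genes tested 1 was higher and 14 were not called, with a median log2 difference of 0.06, which turned to -0.01 with median-of-ratios scaling. The member entered as GSN1, a MAP kinase phosphatase known from the control of grain size, lay below WT in every edited library but by little, at 17.96 to 19.23 FPKM in WT and 11.98 to 17.09 in edited grains (log2 difference -0.22, adjusted p = 0.3).

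IAA25 (LOC_Os08g01780), a member of the Aux/IAA repressor family, was the list member that fell. It stood at 20.11, 17.18 and 13.24 FPKM in WT, at 12.16, 10.59 and 10.69 in GSK5 and at 7.23, 9.65 and 7.4 in ARF4. The sides did not overlap, and ARF4 was the lower of the edited groups without a called difference between them (adjusted p = 0.329). IAA25 fell, with a log2 difference of -0.75 (SE 0.15, adjusted p = 0.0355 by limma). The call held in 8 of 19 alternatives, with adjusted p up to 0.15, and was lost without WT replicate 1 or 2, any GSK5 library or ARF4 replicate 1 or 3. Of 24 Aux/IAA genes tested 1 was lower and 23 were not called. The median log2 difference was 0.39, with 16 of 24 above 0. Of 23 auxin response factors 20 had a difference above 0, with a median of 0.37, but 0 were called. ARF21 lay above WT in every edited library, at 37.21, 50.02 and 52.06 FPKM in WT and 56.55 to 63.21 in edited grains (log2 difference 0.37, adjusted p = 0.112).

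In the starch pathway the pooled call came from the GSK5 libraries. The locus entered as AGPL2 (LOC_Os01g44220), a large subunit of ADP-glucose pyrophosphorylase, the enzyme that makes the glucose donor of starch, stood at 22.51, 25.9 and 26.01 FPKM in WT, at 72.3, 74.92 and 96.31 in GSK5 and at 31.88, 24.03 and 29.38 in ARF4. The ARF4 libraries overlapped WT, while the GSK5 libraries lay far above both. The pooled log2 difference was 0.92 (SE 0.13, adjusted p = 0.0127), made up of 1.66 in GSK5 and 0.18 in ARF4, and GSK5 differed from ARF4 (adjusted p = 0.0102). The call was lost with a common mean for the edited libraries (adjusted p = 0.251; 0.00586 to 0.251 over the alternatives), where groups could differ in spread, and without WT replicate 1 or 2. Of 27 starch genes tested 1 was higher and 26 were not called, with a median log2 difference of 0.32. Without WT replicate 3, in which the summed level of the list was 1558 FPKM, the highest of any library, 13 of the 27 were called higher. In that fit 18.8% of all genes tested were called, and 2498 of 23107 were called higher. The look without this library was prompted by its position among the libraries, so the count is a description only.

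For 1 storage protein gene the pooled call came from the ARF4 libraries. GluA1 (LOC_Os01g55690), a glutelin with close copies that makes its value uncertain, stood at 0.11, 0.41 and 0.46 FPKM in WT, at 0.55, 0.39 and 0.57 in GSK5 and at 9.61, 4.86 and 9.73 in ARF4. The GSK5 libraries were level with WT, and the ARF4 libraries stood apart. The pooled log2 difference of 1.46 (SE 0.22, adjusted p = 0.0155) was made up of 0.19 in GSK5 and 2.73 in ARF4, with an adjusted p of 0.00957 between GSK5 and ARF4. GluA1 passed the filter only through the ARF4 libraries, where it was high, so that difference was favoured by the filter and supports nothing by itself. It was tested in 15 of the 19 alternatives, since it did not pass the filter at 5 FPKM or without an ARF4 library, and was called in 9. The call was lost with a common mean for the edited libraries (adjusted p = 0.281; 0.0147 to 0.281 over the alternatives tested). Leaving out GSK5 replicate 2 or 3, or WT replicate 1 or 2, also ended it. So did quantile normalization, where the adjusted p was 0.0491 by limma but the directions of GSK5 and ARF4 did not agree. Of the 5 storage list members tested, the other 4 had no called difference between GSK5 and ARF4. Of the 7 glutelin loci other than GluA1 and GluA2, 6 had every ARF4 library above every other library, at no more than 0.72 FPKM, under the 1 FPKM filter.

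RPBF, entered as LOC_Os02g15350, a Dof-type activator of storage protein genes, stood at 0, 0 and 0.08 FPKM in WT, at 0.68, 0.36 and 0.48 in GSK5 and at 2.44, 1.43 and 2.58 in ARF4. It was near zero in WT, low in GSK5 and higher in ARF4, with no overlap between the sides. Its pooled log2 difference was 1.07 (SE 0.17, adjusted p = 0.0181), and it passed the filter only through the ARF4 libraries. RPBF was tested in 15 of the 19 alternatives and called in 7 (adjusted p up to 0.125). The call was lost without WT replicate 1 or 2 or any 1 of the GSK5 libraries, and without an ARF4 library the gene did not pass the filter. Of the 5 members of the storage list that were tested 2 rose and 3 were not called, with a median log2 difference of 0.83; after quantile normalization 0 were called. Over the whole list WT and GSK5 sums were alike, 8.69 to 9.93 and 9.71 to 10.9 FPKM, and ARF4 sums were 24 to 33.9.

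Heat shock genes, which encode chaperones and respond to handling as well as to heat, included 2 that rose among 11 tested, with a median log2 difference of 0.89. Their summed level ran from 797 to 3565 FPKM within WT, from 749 to 1078 in GSK5 and from 848 to 1967 in ARF4. The highest sum was thus in a WT library. HSP101 (LOC_Os05g44340), a disaggregating chaperone, stood at 0.55, 0.84 and 1.12 FPKM in WT, at 2.83, 4.67 and 4.62 in GSK5 and at 2.39, 1.29 and 3.56 in ARF4. All edited libraries lay above WT, ARF4 replicate 2 by the least. HSP101 rose, with a log2 difference of 1.15 (SE 0.25, adjusted p = 0.0434). The call held in 5 of the 18 alternatives that tested it (adjusted p up to 0.161). It was lost under both other scalings and on leaving out WT replicate 1 or 2, each of the GSK5 libraries or ARF4 replicate 1. The small heat shock protein gene entered as HSP18 (LOC_Os03g16030) stood at 0.61, 1.38 and 2.56 FPKM in WT, at 7.45, 13.6 and 16.25 in GSK5 and at 2.68, 2.48 and 3.53 in ARF4. GSK5 was clearly higher and ARF4 touched the WT range. Its pooled log2 difference was 1.56 (SE 0.3, adjusted p = 0.0323), made up of 2.43 in GSK5 and 0.7 in ARF4. It held in 11 of 19 alternatives (adjusted p up to 0.161) and was lost without WT replicate 1 or 2, GSK5 replicate 2 or 3 or ARF4 replicate 1.

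Clock genes, whose levels turn with the time of day, included 1 riser among 11 tested, with a median log2 difference of 0.24. PRR95 (LOC_Os09g36220), a pseudo-response regulator, stood at 2.85, 6.02 and 12.25 FPKM in WT, at 13.99, 18.21 and 17.66 in GSK5 and at 55.43, 28.02 and 81.21 in ARF4. Every edited library lay above WT, the GSK5 libraries close to WT replicate 3 and the ARF4 libraries far above it. PRR95 rose, with a log2 difference of 2.08 (SE 0.42, adjusted p = 0.0372). The call held in 9 of 19 alternatives (adjusted p up to 0.148) and was lost without WT replicate 1 or 2, any GSK5 library or ARF4 replicate 1. Among clock genes not called, LHY, a MYB-type factor of the morning loop, stood at 6.27 to 7.49 FPKM in WT and 8.16 to 42 in edited grains. The evening complex gene entered as LUX stood at 24.11 to 26.21 FPKM in WT and 4.26 to 21.26 in edited grains. The sides did not overlap for either gene (adjusted p = 0.0781 and 0.117), and the time of day of sampling was not given.

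**Figure D5:**
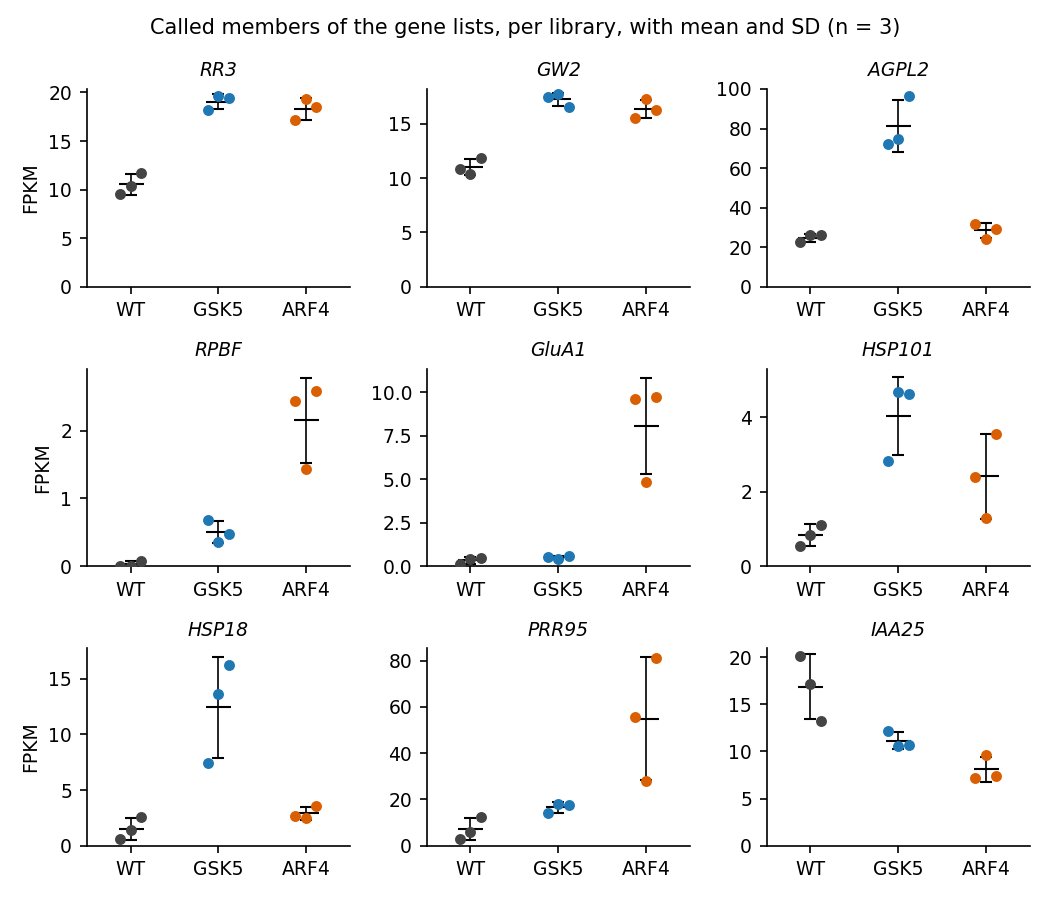
FPKM of the 9 called list members in each library, by group, with the mean and SD of 3 libraries; each vertical axis starts at 0. RR3 and GW2 are level in both edited groups, AGPL2 is high in GSK5, and GluA1 is high in ARF4.

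Brassinosteroid genes were not called, 0 of 11 tested, with a median log2 difference of 0.19; after quantile normalization 1 was called, BZR1. The sides did not overlap for BZR1, the transcription factor that GSK3-like kinases phosphorylate: it stood at 10.92, 16.86 and 20.4 FPKM in WT, at 20.97, 21.97 and 25.24 in GSK5 and at 29.07, 42.51 and 36.18 in ARF4 (log2 difference 0.83, SE 0.2, adjusted p = 0.0571). The lowest edited library was only just above WT replicate 3. D2, a cytochrome P450 of brassinosteroid synthesis, stood at 33.53, 19.16 and 13.23 FPKM in WT and 8.47 to 12.4 in edited grains (log2 difference -0.93, adjusted p = 0.0725). BRD1, the brassinosteroid C-6 oxidase and the most abundant member, had means of 321 in WT, 497 in GSK5 and 204 FPKM in ARF4, so the edited groups lay on opposite sides of WT. Of the 5 GSK3-like kinases tested 0 were called, and the most abundant, entered as GSK3, stood at 46.5 FPKM in WT and 50.7 in edited grains (adjusted p = 0.628).

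Sugar supply and cell wall genes gave 0 calls as well, of 11 and 10 tested. SUT1, a sucrose transporter of grain filling, lay below WT in every edited library, at 118.56 to 187.02 FPKM in WT and 54.92 to 114.82 in edited grains (log2 difference -0.71, adjusted p = 0.141). SUT4, another sucrose transporter, lay above, at 8.79 to 12.24 against 13.6 to 20.66 FPKM (log2 difference 0.56, adjusted p = 0.088). SWEET11, a sugar exporter and the most abundant of the list, spread from 293.19 to 1515.53 FPKM among the WT libraries and from 169.28 to 1473.39 among the edited libraries. All 10 cell wall loosening genes had a difference above 0, with a median of 0.78, but their summed level ran from 257.2 to 3367 FPKM within WT. EXPB3, a beta-expansin, stood at 111.27, 489.61 and 1873.13 FPKM in WT replicates 1, 2 and 3, a range that spans all 6 edited libraries (372.82 to 1576.48).

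The other lists held 0 calls each. The highest median among them was 0.76, for 2 genes tested of the list entered as early endosperm. Of these, FIE2, a polycomb protein gene, lay above WT in every edited library by little. FIE2 stood at 47.92 to 54.68 FPKM in WT and 57.91 to 61.66 in edited grains (log2 difference 0.24, adjusted p = 0.125). The median thus rested mostly on the other gene. The 6 endoplasmic reticulum folding genes had a median of 0.46, with the disulfide isomerase gene PDIL1-1 at 291.9 and 292.1 FPKM on the 2 sides. The 11 genes of auxin synthesis, transport, perception and conjugation had a median of 0.16, with the receptor gene entered as AFB2 at 53.3 FPKM in WT and 60.4 in edited grains (adjusted p = 0.674). The 13 gibberellin and abscisic acid genes had a median of -0.04, with the gibberellin synthesis gene entered as GA20ox1 at 106 and 99.5 FPKM (adjusted p = 0.664). The 4 cell division genes had a median of 0.23, with the kinase inhibitor gene KRP1 at 48 and 64.1 FPKM (adjusted p = 0.265).

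Among tissue markers, the 17 photosynthesis genes had a median log2 difference of -0.21 and 0 calls. The Rubisco small subunit gene entered as RBCS3, their most abundant member, lay below WT in every edited library, at 1158.95 to 1875.95 FPKM in WT and 740.2 to 1093 in edited grains (log2 difference -0.71, SE 0.23, adjusted p = 0.117), and passed the threshold without WT replicate 3 (adjusted p = 0.0491; 0.0491 to 0.447 over the alternatives). The 8 defence genes had a median of -0.46, and PBZ1, a PR10-type protein gene, stood at 115.43, 581.13 and 50.49 FPKM in WT and 127.09 to 202.65 in edited grains (adjusted p = 0.939). The 4 embryo genes had a median of -0.02, but LEA3, a late embryogenesis protein gene, stood at 6.7 to 46.21 FPKM in WT, 135.64 to 174.13 in GSK5 and 4.97 to 24.54 in ARF4. Medians were -0.09 for 4 nucellus and ovule genes, with MADS7 at 279 and 306 FPKM (adjusted p = 0.57), and 0.07 for 2 anther and pollen genes, which turned to -0.12 after quantile normalization.

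Whether the edited genotypes differed from each other within the called genes was asked of the GSK5 against ARF4 contrast. This contrast is orthogonal to the pooled one, but the rule that both edited groups differ from WT in the same direction limits it, so it had a part in choosing the genes and the counts are a description. Of the 924 called genes 39 (4.22%) also differed between GSK5 and ARF4, against 0.483% of all genes tested (113). Both contrasts use a gene's same estimate of spread, so genes with a small spread can pass both more easily. GSK5 was farther from WT in 19 of the 39 and ARF4 in 20. For 566 of the 924 genes (61.3%) the differences of GSK5 and ARF4 from WT were within 0.5 log2 units of each other, and for 156 they were more than 1 apart. A difference between genotypes that missed the threshold does not show that they were alike. The count of 39 became 199 without ARF4 replicate 2, 143 without ARF4 replicate 3, 2 without ARF4 replicate 1, 21 and 12 without WT replicate 1 or 2, and 7, 6 and 6 without GSK5 replicate 1, 2 or 3.

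Called genes were spread over all 12 chromosomes, as read from the identifiers. The share called ran from 2.95% of genes tested on chromosome 9 to 5.24% on chromosome 10 and 5.21% on chromosome 11. Chromosomes 10 and 11 also had the highest shares of higher calls, 2.99% and 3.13%, with shares of lower calls of 2.24% and 2.08% that were close to the 2.18% of all genes. These shares are a description, and no test was made of them.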

How the data were processed

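Grain RNA was taken up in Trizol and sequenced from Illumina TruSeq libraries, per the labels' protocols. The authors deposited FPKM values, rounded to 2 decimals, for each gene model and library. Bowtie 0.12.2 and the build mm8 are named, per the submitters' processing notes; mm8 is a mouse build. Which rice build and quantifier were used is not given in the sources used here. A count model was not fitted, because these are not counts. Depth is unknown in absolute terms; relative depth came from the commonest ratio of values between 0.1 and 0.5 FPKM in each pair of libraries.

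Values were analysed as log2(FPKM + 1), which understates changes of low genes. A limma fit (limma 3.58.1, R 4.3.3) with a mean per group and a mean-variance trend gave 2 contrasts, the average of both edited groups minus WT, and GSK5 minus ARF4. Benjamini-Hochberg adjustment ran over all 23385 genes tested. Alternatives were other pseudocounts, filters, scalings, spreads and edited means, a replicate block and leaving out each library. The fit was tested on simulated data: the share of false calls was close to the threshold when all groups had the same spread, and well above it when the groups had the unequal spreads measured here. Plots were drawn with matplotlib 3.10.9, and tables were made with pandas 2.3.3 and numpy 2.4.6 in Python 3.11.15. Whether the libraries within a genotype stem from separate plants is not stated, so the p-values speak to library-to-library spread alone, and that spread may be technical.

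Members, lists and tests were chosen with earlier results of these data known. Genes named in the text are the edited genes, every called list member, the most abundant member of each list without a call, and the 2 identifiers with the largest difference in each direction among called genes without overlap; genes added after their values were seen are those described as not overlapping, the tissue and starch genes of the label check, LHY, LUX and the genes near absent in WT. Loci and symbols were written from memory. The RefSeq table holds no identifiers of this kind; 170 of 284 loci had a RefSeq gene of that symbol on the same chromosome within 5% of its length, 108 had no such symbol there (among them GSK5, AGPL2, BT1, RPBF, HSP18, LUX, BRD1, GSK3, GSN1, AFB2, RR3, GA20ox1, RBCS3, EXPB1a and FIE2), and the rest were placed elsewhere. No sequences were used here.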

Additional observations from a re-analysis of the deposited data

Results flagged for a closer look

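The GSK5 against ARF4 contrast of the limma fit passed the threshold for 3 named genes of the pooled comparison. The locus entered as AGPL2 had a log2 difference from WT of 1.66 in GSK5 and 0.18 in ARF4 (adjusted p = 0.0102 between them). GluA1 had 0.19 in GSK5 and 2.73 in ARF4 (adjusted p = 0.00957), but it passed the filter only through the ARF4 libraries, where it was high, so the difference was favoured before testing. LOC_Os10g22630 had -8.49 in GSK5 and -1.13 in ARF4 (adjusted p = 7.71e-05).

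In 2 named genes a single library stood far from the other 5 edited libraries by Dixon's test, which flags about 5% of groups by chance. SWEET11 was at 169.3 FPKM in ARF4 replicate 2 and at 1006.05 to 1473.39 in the other edited libraries. EXPB1a, a pollen beta-expansin gene, was at 52.9 FPKM in GSK5 replicate 1 and at 0.09 to 9.44 in the others. Both genes were uncalled in the pooled comparison.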

How the results depend on the processing

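The pooled count of 924 genes stayed within 1.5 times under both other pseudocounts, both other filters, both other scalings, robust estimation and without ARF4 replicate 3. It was 458 (187 higher, 271 lower) with a common mean for the edited libraries and 241 (128 and 113) with weights per group. With the replicate number as a block it was 303 (158 and 145). Deviations from the group means correlated between -0.349 and 0.0833 for same-numbered libraries of different groups. For differently numbered libraries they correlated between -0.32 and 0.351. Whether libraries of a replicate number shared a batch was not tested. The block changed the calls of HSP101, PRR95, GW2 and IAA25. Leaving out single libraries gave 137 to 4354 calls, 97 to 2498 higher and 40 to 1856 lower, and 3067 to 8340 genes without overlap (2900 as reported). The filter at 5 FPKM gave 234 higher calls, and no filter gave 339 lower calls. The 39 genes that also differed between GSK5 and ARF4 became 18 with the filter at 5 FPKM, 69 with no filter, 25 with quantile normalization, 11 with the replicate block and 2 to 199 without single libraries; a common mean gives no such count. Called list members, 9 as reported, numbered 2 with a common mean, 3 with weights per group, 5 with the replicate block and 1 to 64 without single libraries. The cause of these shifts was not tested.

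The called genes named kept the sign of their pooled difference in every alternative run. For GluA1 under quantile normalization the directions of GSK5 and ARF4 did not agree, so it was not called there (adjusted p = 0.0491 by limma). Among uncalled genes signs turned. On leaving out single libraries the log2 difference ran from -0.2623 to 0.0207 for GSK5, from -0.0231 to 1.16 for SWEET11, from -0.0499 to 0.0904 for PDIL1-1, from -0.2171 to 0.1431 for BRD1, from -0.0459 to 0.2232 for GSK3, from -0.1712 to 1.86 for EXPB3, from -0.5684 to 0.8104 for EXPB1a (not tested without WT replicate 3 or GSK5 replicate 1 or 2) and from -0.6913 to 1.06 for PBZ1. PDIL1-1 had -0.0700 with median-of-ratios scaling, and BRD1 had 0.0692 with quantile normalization. Depth limits genes under about 1 FPKM, which the filter leaves out unless some libraries are higher.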

Other observations

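Without WT replicate 3, 64 of 230 list members tested were called (27.8%), against 18.8% of all genes in that fit. They included 13 of 27 starch genes, 6 of 10 cell wall loosening genes and 5 of 15 grain size genes called higher in edited grains. WT replicate 3 had the highest summed level of any library for the starch list (1558 FPKM, against 1321 to 1435 in GSK5 and 764.1 to 1056 in ARF4) and for the cell wall list (3367 FPKM, against 1807 to 2630 and 1232 to 1738). The choice to look without this library was prompted by its position among the libraries, so these counts are a description and give no support to a difference between edited and WT grains.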
